A study of Mus musculus with 9 samples.

Results

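The 40 genes of glycolysis, glycogen and glucose output, oxygen sensing and the hypoxia response were described across 3 groups of liver cells by RNA sequencing. They were taken by gene symbol from the 24453 genes of the deposited table, all 40 were found, and all 40 were among the 13651 genes with enough reads to be tested. HSCs (hepatic stellate cells, the vitamin A-storing pericytes that give rise to most collagen-producing cells of the injured liver) were purified on a density gradient, without a sort, from untreated wild-type C57BL/6J mice and stood for the steady state. CCl4-fib were CD45-GFP+ cells sorted from Col1a2-GFP Tg mice that received carbon tetrachloride, a hepatotoxin, 2 times a week for 8 weeks. NASH-fib were CD45-GFP+ cells sorted from male MC-COL mice, which lack the melanocortin 4 receptor (MC4R-KO) and carry the Col1a2-GFP transgene, fed Western diet for 20 weeks from 8 weeks of age as a model of non-alcoholic steatohepatitis. The collagen α2(I) promoter drives GFP in both fibroblast groups, so the sort kept cells that make collagen, whereas the HSCs carried no reporter. Each group had 3 libraries, and every library pooled cells of 3 to 5 mice. Genotype, diet, toxin and purification therefore all differ between the groups and cannot be told apart.

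Glycolysis splits glucose into pyruvate in the cytosol, and lactate dehydrogenase and the monocarboxylate transporters dispose of the product as lactate when mitochondria do not take it up. When oxygen is short, the prolyl hydroxylases stop marking HIF-α subunits for degradation, and the HIF dimer binds a short element in the promoters of glucose transporters, glycolytic enzymes and survival genes. Hepatocytes run much of the route backwards and release glucose, with isoforms of their own for the transporter, glycogen synthase and pyruvate kinase. Activated stellate cells are known for a shift towards glycolysis.

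The values are reads on the exons of a gene scaled by 1 factor per library, referred to below as the value of a gene. Library depth was between 3071070 and 5634273 reads on genes, and 3 reads corresponded to a value of 2.38 to 4.37 depending on the library, which was taken as the floor. The 9 markers of activated fibroblasts summed to 3993 to 6720 in HSCs, 51483 to 58196 in CCl4-fib and 33818 to 37599 in NASH-fib, and the 10 markers of quiescent stellate cells to 46946 to 51589, 16494 to 18125 and 14930 to 19249, so these sums stood with the labels. The fibroblast list holds Col1a2, whose promoter drives the GFP of the sort, so its sum is no independent check of the labels. Markers of other liver cells differed between the groups as well. The 7 markers of cholangiocytes, 1 of which (Spp1) is also on the fibroblast list, summed to 79.5 to 250.4 in HSCs, 3500 to 4780 in CCl4-fib and 6190 to 12026 in NASH-fib, the 10 of macrophages to 3734 to 13656, 265 to 459 and 780.2 to 2713, and the 10 of neutrophils to 50.2 to 1067, 5.55 to 78.2 and 610.4 to 6471 (Ly6g and Cxcr2 at 0 in CCl4-fib). The 10 markers of proliferating cells summed to 339.5 to 383, 509 to 897 and 348 to 476. Hepatocyte, endothelial and smooth muscle markers are given beside the genes they moved with. The gene deleted in MC-COL mice, Mc4r, had 0 reads in the HSCs and CCl4-fib and 4, 13 and 0 in the NASH-fib libraries, and could not check the genotype. HSC replicate 2 and NASH-fib replicate 1 stood apart from the other libraries of their groups. The correlation, across genes, between GC content and the deviation of a library from the mean of all libraries was -0.307 in HSC replicate 2 and -0.514 in NASH-fib replicate 1, against -0.0896 and 0.0828 in the other HSC libraries, 0.138 and -0.0828 in the other NASH-fib libraries and 0.244 to 0.351 in CCl4-fib. The 40 genes have a median GC content of 52.7%, compared with 49.9% over the tested genes.

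To determine whether activation altered the 40 genes, each fibroblast group was compared with HSCs, and NASH-fib with CCl4-fib. A gene was called when its log2 fold change was at least 1 in size with an adjusted p under 0.05 (limma on log2(value + 1), Benjamini-Hochberg over the 13651 genes). In CCl4-fib against HSCs, 14 of the 40 genes were called higher (35.0%), against 16.2% of all tested genes, and 4 were called lower (10%), against 11.7%. In NASH-fib against HSCs, 4 were called higher (10.0%), against 8.23% of all tested genes. By limma, 0 genes were called lower in that comparison, where 4.3% of all tested genes were; 3 of the 40 were lower at an unadjusted p under 0.05, and edgeR and DESeq2 each called 0 lower. In NASH-fib against CCl4-fib, 5 were called higher (12.5%), against 4.97% of all tested genes, and 2 were called lower (5%), against 5.66%, where edgeR called 6 higher and 1 lower. The median log2 fold change of the 40 genes was 1.20 in CCl4-fib against HSCs, 0.35 in NASH-fib against HSCs and -0.39 in NASH-fib against CCl4-fib, where that of all tested genes was 0.18, -0.02 and -0.11. The scaling by TMM moved the median of all tested genes to 0.06, 0.04 and 0.07 in these comparisons. The comparisons share libraries, so their values are set side by side below and not counted as separate evidence.

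**Figure D1:**
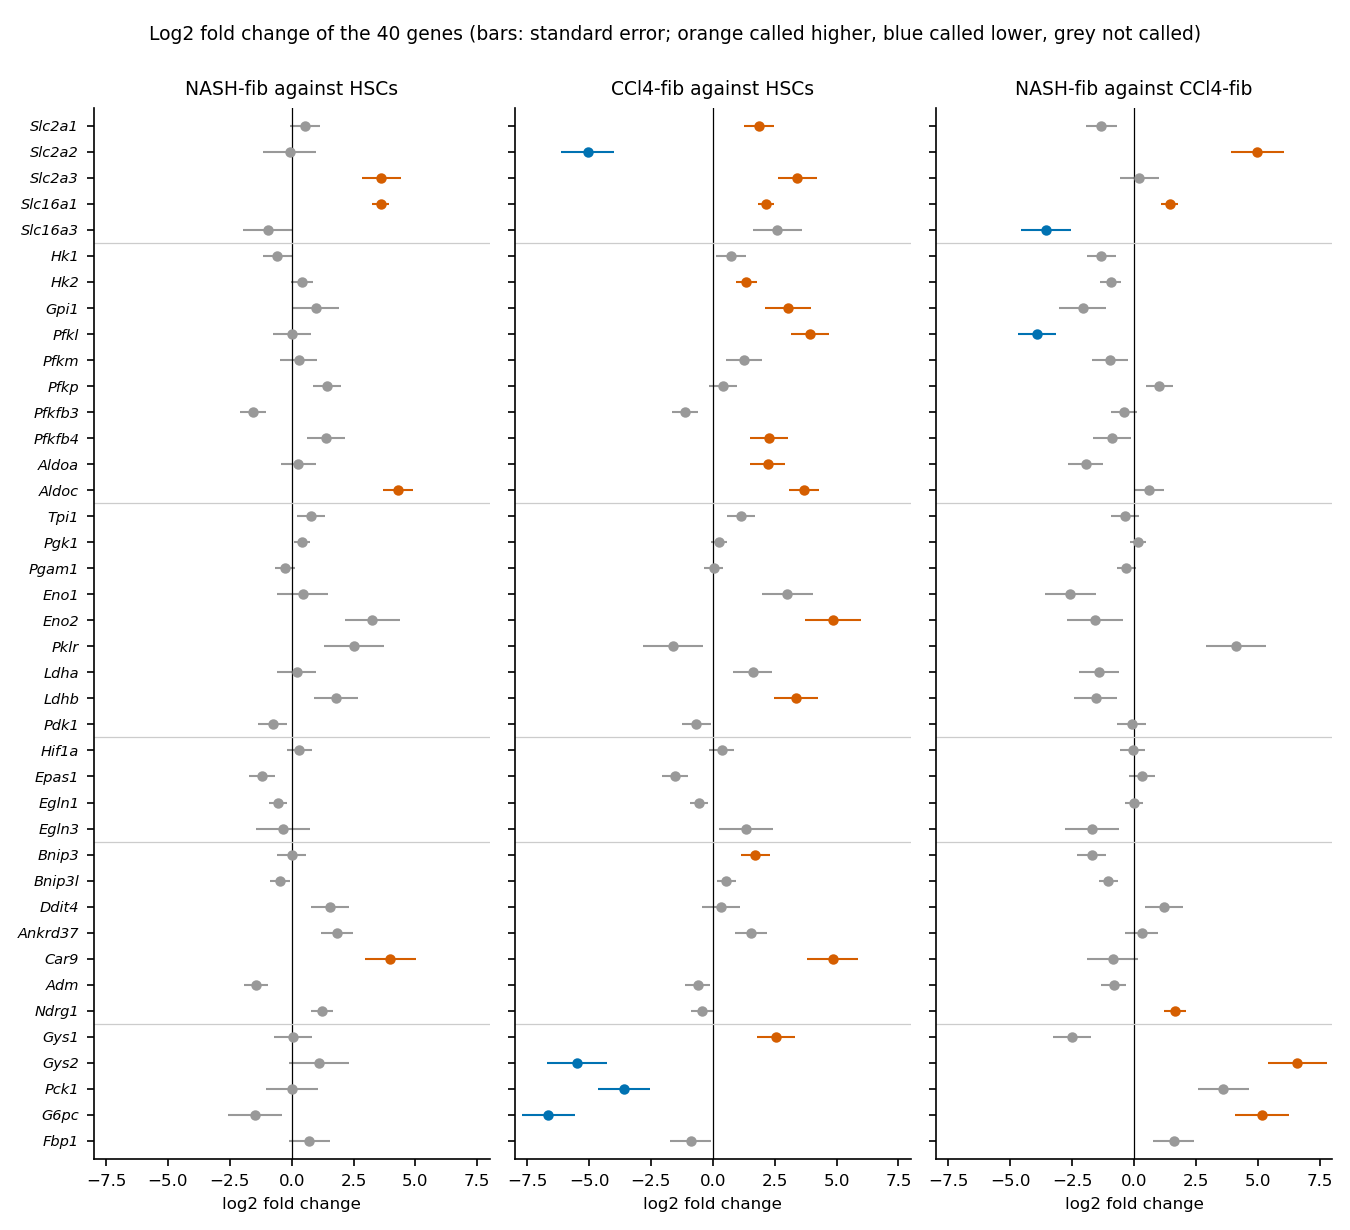
Log2 fold change (x axis, with its standard error as a bar) of each of the 40 genes (y axis, ordered by role, with lines between the roles) in the 3 comparisons. Orange points were called higher, blue points lower, and grey points were not called. The middle panel, CCl4-fib against HSCs, holds 14 orange and 4 blue points, and the left panel, NASH-fib against HSCs, holds 4 orange points.

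Slc16a1, Aldoc, Slc2a3 and Car9 were the genes called in NASH-fib against HSCs, and all 4 were also higher in CCl4-fib. They are a lactate transporter, a glycolytic enzyme, a glucose transporter and an enzyme of pH control. Slc16a1 (MCT1, the proton-coupled carrier of lactate and pyruvate; NM_009196, mm10 chr3:104638664-104658462, plus strand) had values of 167, 246 and 151 in HSCs compared with 956, 843 and 694 in CCl4-fib and with 2811, 1964 and 2008 in NASH-fib. The 3 groups did not overlap, with NASH-fib on top. Its log2 fold change against HSCs was 3.59 ± 0.33 (SE) in NASH-fib (limma, adjusted p = 7.51e-05) and 2.16 in CCl4-fib (limma, adjusted p = 0.000924), and NASH-fib exceeded CCl4-fib by 1.44 (limma, adjusted p = 0.0247). Per base, it was the most abundant of the 5 transporters in the NASH-fib libraries, with a mean of 114 RPKM (reads per kilobase of exon, scaled to library depth). The call of NASH-fib over CCl4-fib was lost without any of the 3 CCl4-fib libraries, without NASH-fib replicate 1 and without NASH-fib replicate 3, with an adjusted p of up to 0.0989. It was also lost with the date of the label as a term (limma, adjusted p = 0.0569). With GC content and length removed it was lost too, at a log2 fold change of 0.77 (limma, adjusted p = 0.110). The adjusted p was 0.166 (limma) with the replicate block added to that removal.

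Aldoc (NM_001303423, mm10 chr11:78323073-78327778, plus strand) encodes aldolase C, the brain-type isoform of the enzyme that cleaves fructose bisphosphate. It was nearly absent from HSCs, at 4.68, 7.28 and 4.78, and reached 69.8, 111 and 71.5 in CCl4-fib, with 47.6, 199 and 210.3 in NASH-fib. Both fibroblast groups lay entirely above the HSCs and overlapped each other. The log2 fold change against HSCs was 4.29 ± 0.61 in NASH-fib (limma, adjusted p = 0.000937) and 3.68 ± 0.61 in CCl4-fib (limma, adjusted p = 0.00145). It did not differ between the fibroblast groups past the threshold (log2 fold change 0.61 ± 0.61). The calls of Slc16a1 and Aldoc against HSCs held in every fit that left out 1 library.

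Slc2a3 (GLUT3, a high-affinity glucose transporter; NM_011401, mm10 chr6:122727809-122742745, minus strand) had values of 0, 4.37 and 8.37 in HSCs, of which replicate 1 had 0 reads and replicate 2 was at the floor. It had 39.7, 24.7 and 57.2 in CCl4-fib, with 55.7, 49.0 and 32.4 in NASH-fib. Again neither fibroblast group overlapped the HSCs, and the fibroblast groups overlapped each other. The log2 fold changes were 3.63 ± 0.80 (limma, adjusted p = 0.0121) and 3.41 ± 0.80 (limma, adjusted p = 0.00957). Car9 (carbonic anhydrase IX, a membrane enzyme that exports acid equivalents and a widely used mark of hypoxic cells; NM_139305, mm10 chr4:43507026-43513725, plus strand) had values of 7.01, 0 and 39.5 in HSCs against 209, 242 and 149 in CCl4-fib and against 101, 110.4 and 114 in NASH-fib. The HSC libraries were far apart, from 0 reads in replicate 2 to 33 in replicate 3, whereas the NASH-fib libraries lay within 108 ± 6.95 (mean ± SD, n = 3). Its log2 fold change was 3.99 ± 1.03 in NASH-fib (limma, adjusted p = 0.0273) and 4.84 ± 1.03 in CCl4-fib (limma, adjusted p = 0.00591). The NASH-fib call of Car9 was lost without HSC replicate 1, NASH-fib replicate 2 or NASH-fib replicate 3, with an adjusted p of up to 0.0809, and also with edgeR (log2 fold change 2.85, adjusted p = 0.0607) and in the fit of these 2 groups alone (limma, adjusted p = 0.0886). Both calls of Slc2a3 held without each library in turn but were lost with the date term, where its log2 fold change was 2.51 in NASH-fib (limma, adjusted p = 0.210) and 2.40 in CCl4-fib (limma, adjusted p = 0.0663). In both fibroblast groups the cholangiocyte markers were high as well, 7 of 7 being called higher in NASH-fib and 4 of 7 in CCl4-fib against HSCs, and their part in these 4 genes was not tested.

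The promoters of these genes are shown because HIF dimers bind DNA at a core of the letters ACGTG or GCGTG. RefSeq windows on GRCm38.p6, from 250 bases before to 50 after the start of the gene, were on hand for 35 of the 40 genes, and that of Slc2a3 was not among them. Capitals mark each core on the strand shown or, as CACGT or CACGC, on the opposite strand, and the windows are printed 5′ to 3′ on the strand of the gene.
Slc16a1, chr3:104638414-104638713: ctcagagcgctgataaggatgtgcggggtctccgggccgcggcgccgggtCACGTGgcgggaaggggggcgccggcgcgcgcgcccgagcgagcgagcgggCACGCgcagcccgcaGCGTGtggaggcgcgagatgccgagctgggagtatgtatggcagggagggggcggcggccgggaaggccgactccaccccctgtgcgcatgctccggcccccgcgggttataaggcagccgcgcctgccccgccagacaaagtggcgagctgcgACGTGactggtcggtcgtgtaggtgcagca
Aldoc, chr11:78322823-78323122: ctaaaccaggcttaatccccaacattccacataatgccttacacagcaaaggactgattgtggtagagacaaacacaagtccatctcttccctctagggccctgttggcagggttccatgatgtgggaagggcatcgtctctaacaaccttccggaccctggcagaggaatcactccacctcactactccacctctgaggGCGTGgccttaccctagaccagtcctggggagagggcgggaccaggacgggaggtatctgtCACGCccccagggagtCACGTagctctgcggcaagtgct
Car9, chr4:43506776-43507075: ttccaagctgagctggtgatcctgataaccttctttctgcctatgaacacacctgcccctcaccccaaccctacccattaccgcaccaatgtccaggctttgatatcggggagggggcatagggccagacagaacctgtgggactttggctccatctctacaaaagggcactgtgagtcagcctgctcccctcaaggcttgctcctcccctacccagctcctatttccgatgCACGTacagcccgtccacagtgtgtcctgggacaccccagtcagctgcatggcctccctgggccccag

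The Slc16a1 window held 5 cores, of which those at -200 and -199 from the start are the opposite readings of a single CACGTG, a sequence that other basic helix-loop-helix factors bind too. The Aldoc window held 3 cores, at -50, 12 and 28 from the start, and the Car9 window held 1, at -18 on the opposite strand. A core of either kind, on either strand, was present in 25 of the 35 windows (71.4%), compared with 61.0% of the 10329 windows of tested genes and 43.8% of all 27025 windows. Among the genes called higher in CCl4-fib than in HSCs, 10 of 13 windows held a core (76.9%), and among the others 15 of 22 did (68.2%). A match describes letters in a window and is no measure of binding.

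**Figure D2:**
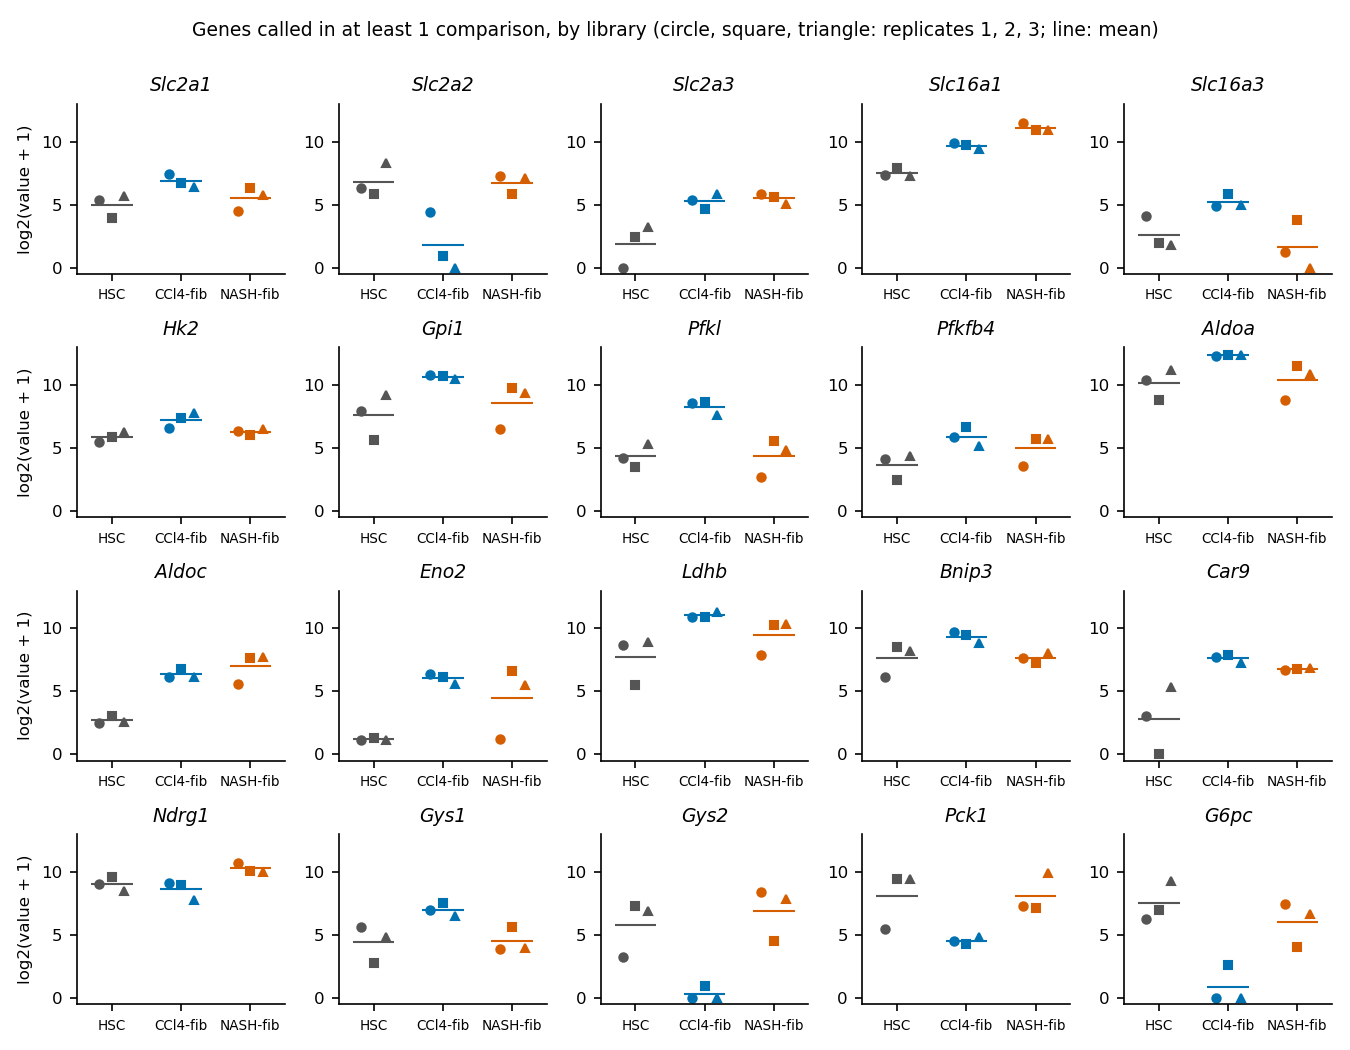
Log2(value + 1) (y axis) of each of the 20 genes called in at least 1 comparison, in each library of the 3 groups (x axis). Circles, squares and triangles are replicates 1, 2 and 3 and lines are group means. Slc16a1, Aldoc, Slc2a3 and Car9 are higher in every fibroblast library than in every HSC library, and Slc2a2, Gys2 and G6pc are lowest in CCl4-fib.

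Among the other transporters, Slc2a1 (GLUT1, the glucose transporter of most cells outside the liver parenchyma) was called higher in CCl4-fib. Its values were 39.8, 14.6 and 50.2 in HSCs compared with 169, 107 and 84.0 in CCl4-fib and with 21.8, 81.0 and 52.1 in NASH-fib. Every CCl4-fib library exceeded every other library, while NASH-fib and HSCs overlapped. The log2 fold change of CCl4-fib was 1.86 ± 0.62 (limma, adjusted p = 0.0465), and the call was lost without any 1 of 6 libraries (HSC replicates 1 and 2, the 3 CCl4-fib libraries and NASH-fib replicate 3), the adjusted p reaching 0.165, and in 5 of 13 other fits, edgeR, the replicate block and the date term among them. Slc16a3 (MCT4, the lactate exporter of highly glycolytic cells) had values of 16.4, 2.91 and 2.39 in HSCs against 28.6, 57.0 and 29.6 in CCl4-fib and against 1.36, 12.5 and 0 in NASH-fib. CCl4-fib were above all other libraries, and several of the rest held fewer than 3 reads. NASH-fib were lower than CCl4-fib by a log2 fold change of -3.56 (limma, adjusted p = 0.0472), a call lost without any 1 of 7 libraries (HSC replicates 1 and 3, the 3 CCl4-fib libraries, and NASH-fib replicates 1 and 3), with an adjusted p of up to 0.173. It was also lost in 9 of 13 other fits, edgeR (adjusted p = 0.115), the replicate block, the date term and the removal of GC content and length among them.

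Of the 10 genes of the upper part of glycolysis, from the trapping of glucose to the cleavage of the sugar, CCl4-fib exceeded HSCs for 6, NASH-fib exceeded HSCs for 1 (Aldoc), and 1 (Pfkl) was called lower in NASH-fib than in CCl4-fib. Pfkl (the liver-type subunit of phosphofructokinase, the main control point of the pathway; NM_008826, mm10 chr10:77986949-78009796, minus strand) had values of 17.5, 10.2 and 39.5 in HSCs compared with 371, 408 and 193 in CCl4-fib and with 5.44, 46.3 and 27.5 in NASH-fib. The CCl4-fib libraries stood clear of all others, and NASH-fib and HSCs overlapped. The mean was 14.5-fold that of HSCs (log2 fold change 3.93 ± 0.76; limma, adjusted p = 0.00354), and NASH-fib fell below CCl4-fib by a similar margin (log2 fold change -3.91; limma, adjusted p = 0.0152). The call against HSCs held without each library in turn, and the call against CCl4-fib was lost without CCl4-fib replicate 1 or 2, with an adjusted p of up to 0.0745.

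The other subunits were not called. Pfkm, the muscle-type subunit, had means of 49.2 ± 21.2 in HSCs against 114 ± 31.6 in CCl4-fib and against 76.3 ± 56.3 in NASH-fib (SD, n = 3). Pfkp, the platelet-type subunit, had values of 375, 242 and 719 in HSCs compared with 629, 496 and 485 in CCl4-fib and with 449.9, 1599 and 1788 in NASH-fib, 2 of the NASH-fib libraries being higher than any other library. Neither passed the test in any of the 3 comparisons, but DESeq2 called Pfkp higher in NASH-fib than in HSCs, and leaving out HSC replicate 2 and NASH-fib replicate 1 together, a choice made after seeing the data, Pfkp was called higher in NASH-fib than in HSCs (log2 fold change 1.70; limma, adjusted p = 0.00664) and than in CCl4-fib (1.66; limma, adjusted p = 0.0118). Pfkp shares reads with Pitrm1, which overlaps it on the opposite strand, since reads of both strands were counted.

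Gpi1, glucose-6-phosphate isomerase, had values of 241, 49.5 and 597 in HSCs against 1741, 1697 and 1396 in CCl4-fib and against 92.4, 877 and 662 in NASH-fib. CCl4-fib lay above every other library (against HSCs, log2 fold change 3.05 ± 0.94; limma, adjusted p = 0.0343), and the HSC libraries spanned a wide range around the lowest, replicate 2. Aldoa, the ubiquitous aldolase and the most abundant of the 40 genes per base in all 3 groups (196, 750.0 and 250.1 RPKM), had values of 1385, 459 and 2298, 5163, 5387 and 5307 and 449.9, 2971 and 1867 in HSCs, CCl4-fib and NASH-fib. The CCl4-fib libraries agreed closely and were above all others, with a log2 fold change of 2.22 ± 0.71 against HSCs (limma, adjusted p = 0.0396). Aldoa reached 4.13 reads per base, where the limit of 3 reads per position in the counting flattens a value. Without HSC replicate 2 the calls of both genes were lost (limma, adjusted p = 0.107 for Gpi1 and 0.130 for Aldoa), and so they were without HSC replicate 1 or any 1 of the CCl4-fib libraries, and for Aldoa without NASH-fib replicate 3. The call of Gpi1 was also lost with edgeR (adjusted p = 0.0614). That of Aldoa was lost with edgeR, the replicate block, the date term and the removal of GC content and length, which lowered its log2 fold change to 1.28 (limma, adjusted p = 0.0532).

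Hk2, the inducible hexokinase, had values of 43.2, 58.2 and 77.7 in HSCs compared with 95.2, 164 and 217 in CCl4-fib and with 78.8, 63.2 and 92.4 in NASH-fib. The CCl4-fib libraries were above the others, the lowest by a narrow gap (against HSCs, log2 fold change 1.36 ± 0.44; limma, adjusted p = 0.0412). The constitutive hexokinase Hk1 did not pass the test, with means of 79.8 ± 24.1, 137 ± 49.1 and 64.4 ± 51.4 in HSCs, CCl4-fib and NASH-fib. Pfkfb4 and Pfkfb3 make and break fructose-2,6-bisphosphate, the activator of phosphofructokinase. Pfkfb4 had 16.4, 4.37 and 19.1 in HSCs against 57.9, 101 and 34.4 in CCl4-fib and against 10.9, 52.5 and 51.1 in NASH-fib, and was called higher in CCl4-fib (log2 fold change 2.28 ± 0.77; limma, adjusted p = 0.048). Pfkfb3 went the other way without passing the test, at 167, 204 and 81.3 in HSCs against 62.7, 62.1 and 64.9 in CCl4-fib, with 84.3, 48.1 and 25.6 in NASH-fib, its CCl4-fib libraries lying below all HSC libraries. The calls of Hk2 and Pfkfb4 were lost without any 1 of 5 and 7 libraries, HSC replicates 1 and 2 and CCl4-fib replicates 2 and 3 among them for both, with adjusted p of up to 0.147 and 0.174. They were also lost in 4 and 5 of 13 other fits, the date term being among these for both.

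Of the 9 genes of the lower part, from triose phosphate to lactate, 2 (Eno2 and Ldhb) were called in CCl4-fib against HSCs, both of them higher. That is 22.2%, where 16.2% of all tested genes were called higher. Eno2 (neuron-specific enolase; NM_013509, mm10 chr6:124760053-124769673, minus strand) had 1 read in each HSC library, values of 82.5, 68.9 and 47.7 in CCl4-fib, and values of 1.36, 96.2 and 44.2 in NASH-fib. The NASH-fib libraries were split, replicate 1 having 1 read like the HSCs and the others reaching the level of CCl4-fib. Against the floor of 3 reads per library, the mean of CCl4-fib was at least 17.4-fold higher than that of HSCs (limma, adjusted p = 0.00932), a call lost with the date term (limma, adjusted p = 0.0532). NASH-fib did not pass the test against HSCs with limma (adjusted p = 0.0953) but did so with edgeR and DESeq2, and with HSC replicate 2 and NASH-fib replicate 1 left out (limma, adjusted p = 0.000462).

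Ldhb, the lactate dehydrogenase subunit that favours lactate oxidation, had values of 403, 45.1 and 479 in HSCs compared with 1946, 1955 and 2566 in CCl4-fib and with 232, 1227 and 1338 in NASH-fib. All CCl4-fib libraries exceeded all others (against HSCs, log2 fold change 3.36 ± 0.88; limma, adjusted p = 0.0174), and the lowest libraries of the other groups were HSC replicate 2 and NASH-fib replicate 1. The call was lost without any 1 of the CCl4-fib libraries, with an adjusted p of up to 0.0570. Ldha, the subunit that favours lactate formation, had 939, 491 and 3199 in HSCs against 2679.6, 3607 and 4296 in CCl4-fib and against 362, 2667 and 2307 in NASH-fib, the HSC libraries overlapping both fibroblast groups. It did not pass the test (CCl4-fib against HSCs, log2 fold change 1.60 ± 0.81; limma, adjusted p = 0.163).

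Eno1, the general enolase and a gene whose entry overlaps that of Eno1b on the same strand, was higher in every CCl4-fib library, at 2118, 2638 and 3501, than in HSCs, at 285, 112 and 1148, and NASH-fib, at 74.8, 1122 and 1088. Its adjusted p against HSCs was 0.0521 (limma, log2 fold change 3.01 ± 1.04), just above 0.05, and DESeq2 called it. Tpi1, triosephosphate isomerase, had means of 767 ± 333, 1623 ± 383 and 1519 ± 921, and shares reads with Spsb2 on the opposite strand. Pgk1 and Pgam1, the next enzymes of the route, were not called. Pgk1 had means of 566 ± 69.5, 689 ± 185 and 756 ± 145, and Pgam1 of 169.6 ± 52.8, 174 ± 50.3 and 138 ± 25.2 in HSCs, CCl4-fib and NASH-fib (SD, n = 3). In CCl4-fib against HSCs, their log2 fold changes were 0.26 ± 0.33 and 0.04 ± 0.39. Pdk1, the kinase that keeps pyruvate out of mitochondria and a HIF target, ranged from 38.6 to 172 in HSCs, 46.0 to 72.5 in CCl4-fib and 31.4 to 70.7 in NASH-fib, and passed no test. Among the enzymes, Hk2, Gpi1, Pfkl, Pfkfb4, Aldoa, Aldoc, Eno2 and Ldhb were thus called higher in CCl4-fib than in HSCs. Those not called were Hk1, Pfkm, Pfkp, Pfkfb3, Tpi1, Pgk1, Pgam1, Eno1, Pklr, Ldha and Pdk1.

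The 19 glycolytic enzymes of the list were also added up. They took 0.121%, 0.0744% and 0.240% of all reads on genes in HSC replicates 1 to 3, 0.388%, 0.432% and 0.484% in CCl4-fib, compared with 0.0801%, 0.312% and 0.289% in NASH-fib. All CCl4-fib libraries were above all others, at 0.434% ± 0.0481 (SD, n = 3), and NASH-fib, at 0.227% ± 0.128, overlapped HSCs, at 0.145% ± 0.0854, through replicate 1 alone. The labels open with a number that reads as a date. Within that of HSC replicate 2, CCl4-fib replicate 1 and NASH-fib replicate 1 the shares were 0.0744%, 0.388% and 0.0801%, within that of HSC replicate 3 and CCl4-fib replicate 2 they were 0.240% and 0.432%, and within that of CCl4-fib replicate 3 and NASH-fib replicates 2 and 3 they were 0.484%, 0.312% and 0.289%. CCl4-fib was thus the highest within each of these dates, with 1 or 2 libraries per group. With the date as a term, 7 genes were called higher and 4 lower in CCl4-fib than in HSCs, among them Slc16a1, Aldoc, Car9, Pfkl, Gpi1, Ldhb and Gys1. The share of all tested genes called with that term was not counted.

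NASH-fib replicate 1 was the lowest of its group for 13 of the 19 enzymes (68.4%), and for 48.2% of all tested genes. Its median log2 difference from the other NASH-fib libraries was -2.13 over the enzymes and -0.24 over all tested genes. HSC replicate 2 was the lowest of its group for 11 of the 19 (57.9%), and for 41.2% of all tested genes. The enzymes have a median GC content of 53.5%, and these are the libraries in which genes of high GC content were low. The part of GC content in the low enzymes was not tested. Leaving out both libraries raised the count in NASH-fib against HSCs from 4 to 9 called higher, adding Pfkp, Tpi1, Eno2, Ldhb and Ankrd37, and gave 1 called lower, Pfkfb3. It gave 15 higher and 4 lower in CCl4-fib against HSCs, and 7 higher and 4 lower in NASH-fib against CCl4-fib. With GC content and length removed from the values, the counts were 5 and 0, 15 and 6, and 6 and 3 in the same order of comparisons (each fibroblast group against HSCs, NASH-fib first, then the fibroblast groups against each other).

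**Figure D3:**
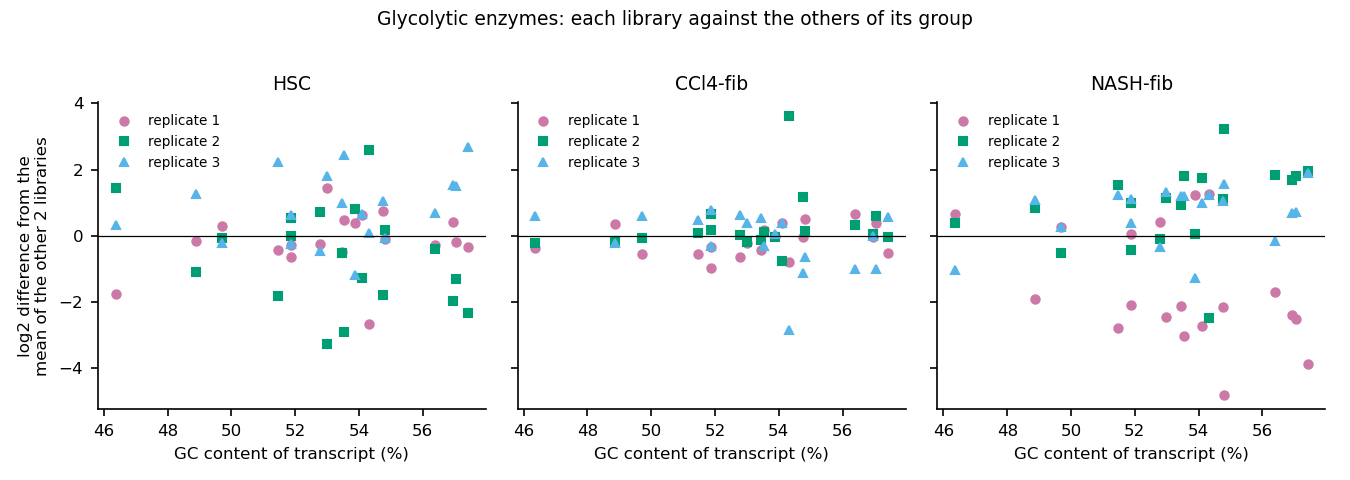
Log2 difference of each glycolytic enzyme in a library from the mean of the other libraries of its group (y axis) against the GC content of its transcript (x axis, %), for HSCs, CCl4-fib and NASH-fib. Each point is 1 enzyme in 1 library, coloured by replicate. Replicate 1 of NASH-fib lies below 0 for most enzymes, with a median of -2.13.

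Oxygen sensing was represented by 4 genes. Hif1a and Epas1 encode the HIF-1α and HIF-2α subunits, and Egln1 and Egln3 encode prolyl hydroxylases that mark them for degradation. By limma, 0 of the 4 were called in any of the 3 comparisons. At an unadjusted p under 0.05, Epas1 alone was lower in each fibroblast group than in HSCs, edgeR called 0 of them and DESeq2 called 1, Epas1, lower in CCl4-fib. The removal of GC content and length changed this in CCl4-fib against HSCs, where Hif1a was then called higher (log2 fold change 1.02; limma, adjusted p = 0.0360) and Epas1 (-1.56; limma, adjusted p = 0.0342) and Egln1 (-1.06; limma, adjusted p = 0.0426) lower. Hif1a had means of 540.5 ± 283 in HSCs compared with 647 ± 138 in CCl4-fib and with 711 ± 475 in NASH-fib, with NASH-fib replicate 1 the highest library at 1247. Epas1 (NM_010137, mm10 chr17:86753864-86833410, plus strand) had values of 1439, 1166 and 1202 in HSCs against 919.9, 401 and 234 in CCl4-fib and against 438, 1007 and 374 in NASH-fib. Every fibroblast library was below every HSC library (CCl4-fib against HSCs, log2 fold change -1.51 ± 0.52; limma, adjusted p = 0.0534), and both fibroblast groups spread widely. Epas1 was called lower in CCl4-fib without CCl4-fib replicate 1, NASH-fib replicate 1 or NASH-fib replicate 2, with HSC replicate 2 and NASH-fib replicate 1 both left out, and in the fit of these 2 groups alone, with adjusted p of 0.0194 to 0.04996 (limma). Epas1 is abundant in endothelial cells, and the 10 markers of sinusoidal endothelial cells summed to 7907 to 16945 in HSCs, 298 to 310 in CCl4-fib and 1201 to 3928 in NASH-fib, with none at 0 in any group. Their part in the Epas1 values was not tested.

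Egln1 had means of 332 ± 31.4, 229 ± 70.5 and 229 ± 61.6 in HSCs, CCl4-fib and NASH-fib, and Egln3, which is itself induced by HIF, ranged from 2.39 to 42.2 within the HSCs alone and from 0.89 to 23.1 within NASH-fib. The spread of Egln3 within the HSCs was wider than the difference between any pair of group means. Levels of mRNA do not report the abundance of HIF proteins, which is set mainly by their degradation.

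Of the 7 genes of the hypoxia response, Car9 was called against HSCs in both fibroblast groups, Bnip3 in CCl4-fib, and Ndrg1 in NASH-fib against CCl4-fib. Higher calls made up 28.6% of the 7 in CCl4-fib and 14.3% in NASH-fib against HSCs, and 14.3% in NASH-fib against CCl4-fib. Over all tested genes the shares were 16.2%, 8.23% and 4.97% in that order. Ndrg1, a stress-induced gene of the NDRG family, had values of 516, 789 and 359.9 in HSCs compared with 538, 494 and 218 in CCl4-fib and with 1695, 1098 and 1017 in NASH-fib. The NASH-fib libraries were above all others, and the other groups overlapped. The log2 fold change was 1.67 ± 0.45 over CCl4-fib (limma, adjusted p = 0.0396) and 1.23 ± 0.45 over HSCs, which did not pass the test (limma, adjusted p = 0.113). The call was lost in 7 of the 9 fits that left out 1 library (HSC replicate 1 and each fibroblast library), with an adjusted p of up to 0.127, and its log2 fold change stayed between 1.26 and 1.91.

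Bnip3 and Bnip3l encode mitophagy receptors. Bnip3 had values of 70.1, 371 and 293 in HSCs against 836, 725 and 459 in CCl4-fib and against 199.8, 151 and 258 in NASH-fib. CCl4-fib lay above every other library. Its log2 fold change against HSCs was 1.72 ± 0.58 (limma, adjusted p = 0.048), a call lost in 9 of 13 other fits, edgeR, DESeq2, the replicate block and the date term among them, and without HSC replicate 1, any CCl4-fib library, or NASH-fib replicate 2 or 3 (adjusted p of up to 0.153). Bnip3l, the more abundant of the pair in every group (83.7, 117 and 61.0 RPKM in HSCs, CCl4-fib and NASH-fib, against 31.3, 86.1 and 25.9 for Bnip3), was lower in every NASH-fib than in every CCl4-fib library without passing the test (log2 fold change -1.03 ± 0.40; limma, adjusted p = 0.119). With GC content and length removed, Bnip3l was called higher in CCl4-fib than in HSCs (1.20; limma, adjusted p = 0.00534) and lower in NASH-fib than in CCl4-fib (-1.71; limma, adjusted p = 0.00769), and Bnip3 was called lower in NASH-fib than in CCl4-fib (-2.48; limma, adjusted p = 0.0273).

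The remaining hypoxia response genes were low or not called. Ankrd37, a short-lived nuclear HIF target that overlaps Ufsp2 on the opposite strand, had 4.78 to 8.74 in HSCs, 11.1 to 39.7 in CCl4-fib and 13.6 to 41.9 in NASH-fib, without an overlap with HSCs, and did not pass the test (limma, adjusted p = 0.106 in each fibroblast group), though DESeq2 called it in NASH-fib. Ddit4, the stress-induced inhibitor of mTORC1, had at most 27 reads in a library and means of 7.89 ± 6.09, 8.05 ± 3.39 and 19.5 ± 5.95. Adm, the vasodilator peptide adrenomedullin, had values of 281, 335 and 289 in HSCs compared with 292, 319 and 81.1 in CCl4-fib and with 113, 91.7 and 129 in NASH-fib. All NASH-fib libraries were below all HSC libraries, and 2 CCl4-fib libraries were level with HSCs (NASH-fib against HSCs, log2 fold change -1.44 ± 0.50; limma, adjusted p = 0.099).

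Of the 5 genes of glycogen synthesis and glucose output, 3 (Gys2, Pck1 and G6pc) were called lower and 1 (Gys1) higher in CCl4-fib than in HSCs. In NASH-fib, 2 (Gys2 and G6pc) were called higher than in CCl4-fib. These are 60%, 20% and 40% of the 5, where 11.7%, 16.2% and 4.97% of all tested genes were called. The 5 genes are described with the liver-type transporter Slc2a2 (GLUT2) and the liver-type pyruvate kinase Pklr. G6pc (glucose-6-phosphatase, the last step of glucose release; NM_008061, mm10 chr11:101367716-101377903, plus strand) had values of 76.0, 127 and 619 in HSCs against 0, 5.10 and 0 in CCl4-fib and against 175, 15.1 and 97.3 in NASH-fib. CCl4-fib held 6 reads of G6pc in all, from replicate 2 alone, and no group overlapped CCl4-fib. The log2 fold change was -6.64 ± 1.09 in CCl4-fib against HSCs (limma, adjusted p = 0.00142) and 5.16 ± 1.09 in NASH-fib against CCl4-fib (limma, adjusted p = 0.0197).

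Gys2 (the liver glycogen synthase; NM_145572, mm10 chr6:142422613-142473109, minus strand) had 8.18, 156 and 115 in HSCs, a single read over the 3 CCl4-fib libraries, with 330.3, 21.4 and 225 in NASH-fib. Against the floor of 3 reads per library, CCl4-fib were at least 35.8-fold lower than HSCs (limma, adjusted p = 0.00682) and NASH-fib at least 74.0-fold higher than CCl4-fib (limma, adjusted p = 0.0131). Slc2a2 (NM_031197, mm10 chr3:28697903-28728360, plus strand) had 80.7, 55.3 and 320.4 in HSCs compared with 20.6, 0.85 and 0 in CCl4-fib and with 155, 57.0 and 139 in NASH-fib. CCl4-fib were lowest, with most of their reads in replicate 1, and HSCs and NASH-fib overlapped. It was called lower in CCl4-fib than in HSCs (log2 fold change -5.06 ± 1.08; limma, adjusted p = 0.00593) and higher in NASH-fib than in CCl4-fib (4.98 ± 1.08; limma, adjusted p = 0.0213).

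Pck1, the cytosolic PEP carboxykinase that commits carbon to glucose synthesis, had values of 43.2, 692 and 680.3 in HSCs against 21.4, 17.9 and 26.7 in CCl4-fib and against 159, 136 and 972 in NASH-fib. It was called lower in CCl4-fib than in HSCs (log2 fold change -3.60 ± 1.04; limma, adjusted p = 0.0268), and NASH-fib exceeded CCl4-fib with an adjusted p of 0.0509 (limma), just above 0.05, and both edgeR and DESeq2 called it higher there. Fbp1, fructose-1,6-bisphosphatase, did not pass the limma test, was called higher in NASH-fib than in CCl4-fib by DESeq2 (adjusted p = 0.0465) and had its lowest mean in CCl4-fib, 108 ± 34.7, against 287 ± 213 in HSCs and 390.5 ± 285 in NASH-fib. Pklr had 2.34, 36.4 and 10.8 in HSCs compared with 1.59, 18.7 and 0 in CCl4-fib and with 114, 19.6 and 113 in NASH-fib, where 2 libraries were well above all others (NASH-fib against CCl4-fib, log2 fold change 4.12 ± 1.22; limma, adjusted p = 0.0555), and DESeq2 called it higher in NASH-fib than in CCl4-fib. The calls of NASH-fib over CCl4-fib were lost without NASH-fib replicate 3 for Gys2, and without any 1 of 4 libraries for G6pc and for Slc2a2 (NASH-fib replicates 1 and 3 and CCl4-fib replicate 3 for both, with CCl4-fib replicate 1 for G6pc and replicate 2 for Slc2a2), with adjusted p of up to 0.0553, 0.0705 and 0.0917. The call of Pck1 against HSCs was lost without HSC replicate 2 or 3 or any 1 of the CCl4-fib libraries (adjusted p of up to 0.0903), or with HSC replicate 2 and NASH-fib replicate 1 both left out (limma, adjusted p = 0.0547).

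Slc2a2, Pklr, Gys2, Pck1, G6pc and Fbp1 are expressed by hepatocytes, and hepatocyte markers moved with them. The 15 hepatocyte markers, such as albumin and transthyretin, summed to 31108 to 64618 in HSCs, 2780 to 3998 in CCl4-fib and 10460 to 40151 in NASH-fib, with none at 0 in any group, and 11 of the 15 were called lower in CCl4-fib than in HSCs and 9 higher in NASH-fib than in CCl4-fib. NASH-fib replicate 2, the NASH-fib library with the lowest sum (10460), was also the lowest of its group for Slc2a2, Pklr, Gys2, Pck1, G6pc and Fbp1. In bulk libraries, fewer cells of a type and less RNA per cell cannot be told apart. Per 1000 of the marker sum, Slc2a2 was at 1.57 to 4.96 in HSCs, 0 to 6.13 in CCl4-fib and 3.45 to 5.45 in NASH-fib, so that the groups overlapped on this scale. Pck1 overlapped as well, at 1.39 to 19.6, 6.36 to 6.68 and 4.48 to 24.2. On this scale Fbp1 was higher in every CCl4-fib library than in any other, at 26.9 to 36.0 against 1.47 to 10.4 in HSCs and 8.96 to 17.6 in NASH-fib. Gys2 was at 0.263 to 4.41 in HSCs, 0 to 0.306 in CCl4-fib and 2.04 to 9.31 in NASH-fib, so that every NASH-fib library stayed above every CCl4-fib library. Pklr overlapped between the groups, at 0.0752 to 1.03, 0 to 6.73 and 1.87 to 3.22. G6pc was at 2.44 to 9.58 in HSCs, 0 to 1.83 in CCl4-fib and 1.45 to 4.94 in NASH-fib. The part of hepatocyte RNA in the liver-type genes was not tested.

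**Figure D4:**
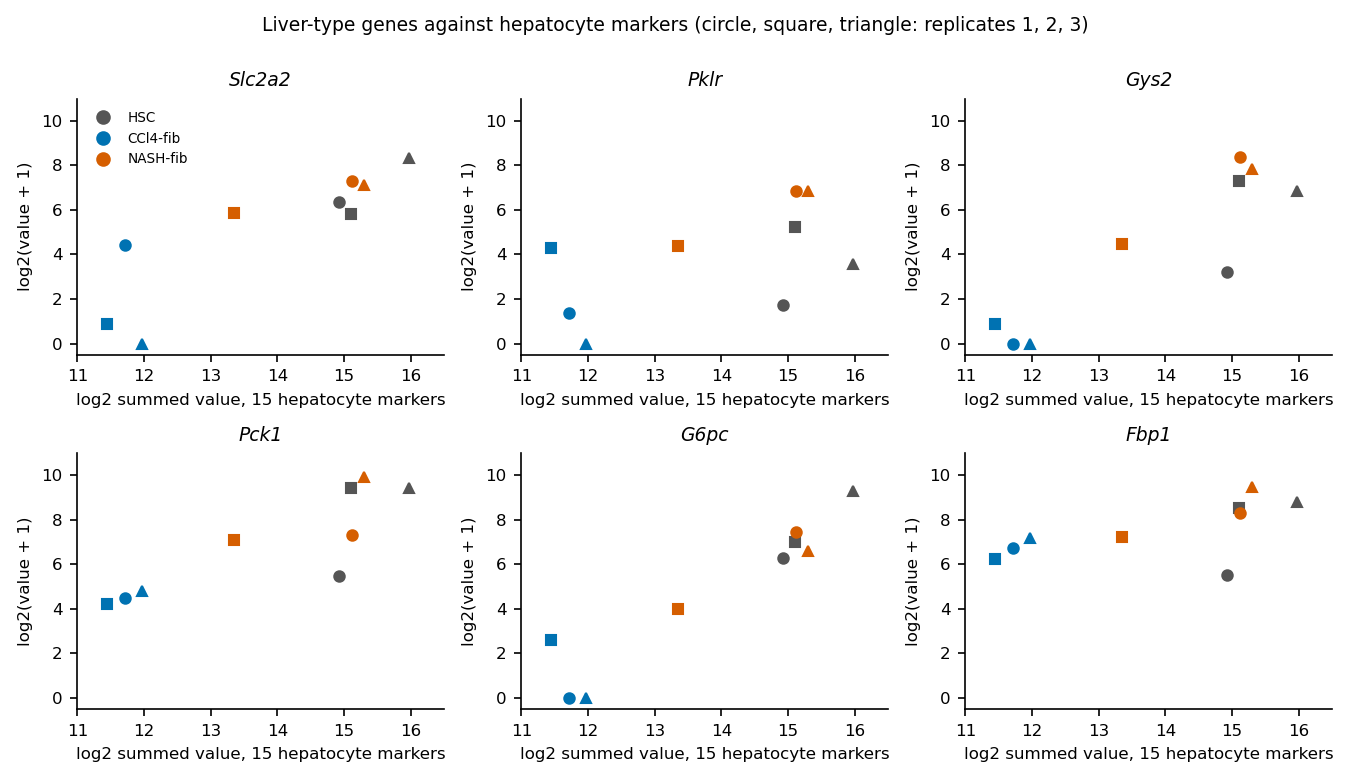
Log2(value + 1) of 6 liver-type genes (y axis) against the log2 summed value of 15 hepatocyte markers (x axis) in each library. Colours are groups and circles, squares and triangles are replicates 1, 2 and 3. The 3 CCl4-fib libraries lie at the low end of the marker sum (2780 to 3998), and NASH-fib replicate 2 lies between them and the other libraries.

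Gys1, the glycogen synthase of muscle and most other cells, ran opposite to Gys2. Its values were 49.1, 5.82 and 27.5 in HSCs against 126, 180.3 and 86.8 in CCl4-fib and against 13.6, 47.2 and 14.7 in NASH-fib. CCl4-fib were above every other library, and Gys1 was called higher there than in HSCs (log2 fold change 2.57 ± 0.77; limma, adjusted p = 0.0307), a call lost without HSC replicate 2 or any 1 of the CCl4-fib libraries (adjusted p of up to 0.112), or with the replicate block. NASH-fib fell below CCl4-fib in every library, with an adjusted p of 0.0625 (limma), and DESeq2 called it lower there.

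To compare isoforms, the reads per base of each were expressed as a share of the family within a library. Gys1 made up 100%, 99.3% and 100% of glycogen synthase in CCl4-fib, but 2.88%, 61.4% and 4.50% in NASH-fib and 81.2%, 2.62% and 14.7% in HSCs. Phosphofructokinase was mostly Pfkp in HSCs (78.0% to 84.5%) and NASH-fib (87.4% to 94.3%), and CCl4-fib stood apart with 23.7% to 42.2% Pfkl, against 3.84% to 5.04% in HSCs and 1.24% to 2.75% in NASH-fib. Here the 3 groups did not overlap and NASH-fib lay on the far side of HSCs from CCl4-fib. Of the glucose transporters, Slc2a1 was 69.3% to 86.4% in CCl4-fib, and Slc2a2 67.0% to 85.2% in HSCs and 33.6% to 72.8% in NASH-fib, while Slc2a3 was at most 3.89% in HSCs and between 9.93% and 30.7% in the fibroblasts. Ldhb made up 11.4% to 37.5% of lactate dehydrogenase in HSCs and a greater share in every fibroblast library, 43.1% to 50.3% in CCl4-fib and 39.1% to 47.3% in NASH-fib. Pyruvate kinase was 94.4% to 100% Pkm in all libraries other than HSC replicate 2 (86.1%) and NASH-fib replicate 1 (60.7%). Slc2a2, Gys2 and Pklr are liver-type genes, and the hepatocyte markers were lowest in CCl4-fib, as given above. The part of hepatocyte RNA in these shares was not tested. With 3 against 3 libraries an exact permutation test cannot go below 0.1, and the shares themselves were not tested.

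**Figure D5:**
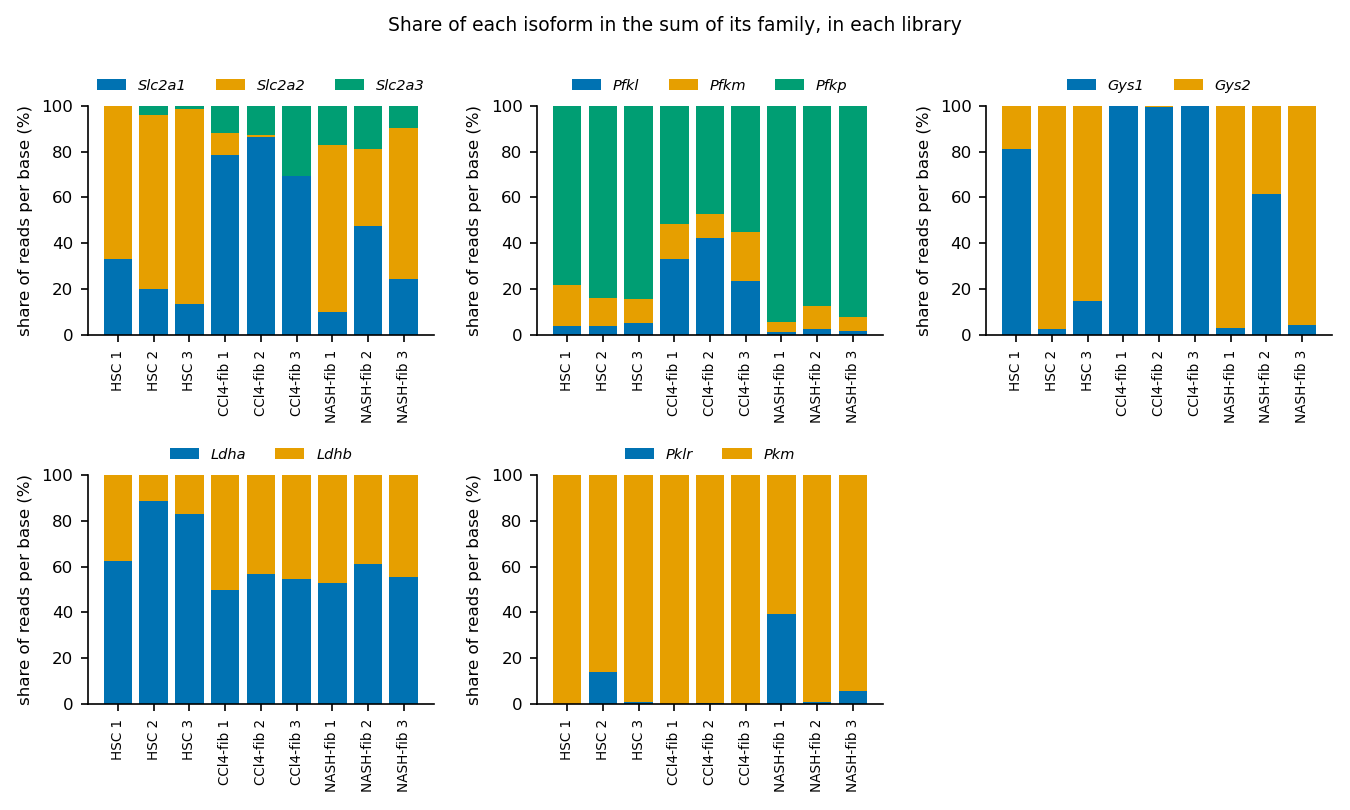
Share of each isoform in the summed reads per base of its family (y axis, %) in each of the 9 libraries (x axis), for glucose transporters, phosphofructokinase, glycogen synthase, lactate dehydrogenase and pyruvate kinase. The CCl4-fib bars are almost all Gys1 (99.3% to 100%) and hold the largest Pfkl shares, 23.7% to 42.2%.

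Other genes of the same pathways, from lists written by hand, were counted in the same fit. Of 29 tested genes of glycolysis and its branches, 5 were called higher and 3 lower in CCl4-fib against HSCs, and 3 higher in NASH-fib against HSCs. In NASH-fib against CCl4-fib, 2 were called higher and 2 lower. These are 17.2% and 10.3%, 10.3%, and 6.90% and 6.90% of the list, where 16.2% and 11.7%, 8.23%, and 4.97% and 5.66% of all tested genes were called in the same comparisons and directions. The muscle-type genes Pgam2 and Slc2a4 (GLUT4, the insulin-responsive glucose transporter) led: Pgam2 had 0 reads in every HSC library, values of 148, 35.7 and 38.2 in CCl4-fib, then of 8.16, 255 and 210 in NASH-fib, and Slc2a4 had at most 1 read in an HSC library, values of 147, 48.5 and 33.4 in CCl4-fib, then of 39.4, 248 and 112 in NASH-fib. Markers of smooth muscle moved with these genes, the 7 of them summing to 131 to 446 in HSCs, 3297 to 14306 in CCl4-fib and 5027 to 21462 in NASH-fib, with Casq2 at 0 in HSCs, and their part was not tested. Slc2a10, a glucose transporter of mesenchymal cells, rose too, from 7.60 ± 5.91 in HSCs to 90.7 ± 19.1 in CCl4-fib and 50.4 ± 21.6 in NASH-fib (log2 fold changes of 3.76 and 2.84; limma, adjusted p = 0.00306 and 0.0235). Pgd, an enzyme of the pentose phosphate branch, was lower in NASH-fib than in CCl4-fib (120 ± 69.5 against 512 ± 28.2; limma, adjusted p = 0.0305), and Slc16a7 (MCT2, another monocarboxylate carrier) was higher (71.7 ± 22.0 against 12.4 ± 2.59; limma, adjusted p = 0.0158), the markers of hepatocytes moving with it as above.

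Of 38 further genes tested that belong to the hypoxia response, 13 were called higher and 2 lower in CCl4-fib against HSCs, 7 higher and 1 lower in NASH-fib against HSCs, and 2 lower in NASH-fib against CCl4-fib. These are 34.2% and 5.26%, 18.4% and 2.63%, and 5.26% of the list, compared with 16.2% and 11.7%, 8.23% and 4.3%, and 5.66% of all tested genes. Vldlr, a lipoprotein receptor that is a HIF target, had at most 1 read in an HSC library and values of 124, 129 and 136 in CCl4-fib, with 336, 211 and 183 in NASH-fib (limma, adjusted p = 2.86e-05 and 1.67e-05 against HSCs). Lox, the collagen cross-linking oxidase, is also on the list of activated fibroblast markers summed above. It had 15.7 ± 23.1 in HSCs, 867 ± 247 in CCl4-fib and 427 ± 166 in NASH-fib (limma, adjusted p = 0.000793 and 0.00325). Pgf, a VEGF family ligand, had at most 3 reads in an HSC library, and its fibroblast libraries were far apart, at 410.4, 27.2 and 37.2 in CCl4-fib, compared with 34.0, 1144 and 396 in NASH-fib (limma, adjusted p = 0.0113 and 0.00441). The smooth muscle markers moved with Pgf, summing to 14306, 3297 and 3345 in these CCl4-fib libraries and to 5027, 21462 and 11385 in the NASH-fib libraries. Their part in Pgf was not tested. Mif, a cytokine, and Angptl4, an inhibitor of lipoprotein lipase, were lower in NASH-fib than in CCl4-fib, Mif at 64.5 ± 36.7 against 692 ± 354 (limma, adjusted p = 0.0120) and Angptl4 at 133 ± 74.2 against 826 ± 335 (limma, adjusted p = 0.0396).

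Of 20 further genes tested of glycogen and glucose synthesis, 4 were called higher and 1 lower in CCl4-fib against HSCs, 1 higher in NASH-fib against HSCs, and 2 higher and 4 lower in NASH-fib against CCl4-fib. These are 20% and 5%, 5%, and 10% and 20% of the list, against 16.2% and 11.7%, 8.23%, and 4.97% and 5.66% of all tested genes. Ppargc1a, a coactivator of mitochondrial and gluconeogenic genes, had 2.83 ± 3.90 in HSCs, 26.6 ± 8.76 in CCl4-fib and 58.4 ± 20.3 in NASH-fib (limma, adjusted p = 0.00884 and 0.00315 against HSCs). Gaa, the lysosomal enzyme that degrades glycogen, and Pck2, the mitochondrial PEP carboxykinase, were higher in CCl4-fib than in either other group. Gaa had 100.5 ± 92.4 in HSCs, 730.4 ± 182 in CCl4-fib and 115 ± 96.9 in NASH-fib, and Pck2 had 71.4 ± 20.0, 429 ± 186 and 113 ± 87.4 in the same order. Their adjusted p against HSCs were 0.0172 and 0.0119, and of NASH-fib against CCl4-fib 0.0385 and 0.0490 (limma). Phkg2, a subunit of phosphorylase kinase, was lower in NASH-fib than in CCl4-fib (38.1 ± 30.6 against 148 ± 29.5; limma, adjusted p = 0.0486), and shares reads with Ccdc189 on the opposite strand.

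Groups of libraries that did not overlap were frequent among all genes. Every NASH-fib library was above every HSC library for 6 of the 40 genes and below for 3, where 12.7% and 11.6% of all tested genes were. Every CCl4-fib library was above every HSC library for 19 and below for 7, compared with 27.8% and 20.9%. Every NASH-fib library was above every CCl4-fib library for 9 and below for 13, compared with 17.1% and 22.0%. The number of genes called higher in CCl4-fib than in HSCs was 14 with all libraries, but 8 without HSC replicate 1 or 2, 7 if CCl4-fib replicate 1 was left out, 6 without CCl4-fib replicate 2 or 3 and 9 without NASH-fib replicate 3. Of these 14 calls, 6 (Slc2a3, Slc16a1, Pfkl, Aldoc, Eno2 and Car9) held in each fit that left out 1 library, as did 3 of the 4 lower calls (Slc2a2, Gys2 and G6pc) and 3 of the 4 higher calls in NASH-fib against HSCs (Slc2a3, Slc16a1 and Aldoc). In NASH-fib against HSCs the count called higher rose to 8 without NASH-fib replicate 1, and 1 gene was called lower without any of 3 libraries, namely replicate 3 of the HSCs, replicate 3 of CCl4-fib and replicate 1 of NASH-fib. In NASH-fib against CCl4-fib, 0 of the 7 limma calls held in each of these fits, and DESeq2 with all libraries called all 7. The count called higher was 2 without CCl4-fib replicate 1 or 2, 1 if CCl4-fib replicate 3 was left out or NASH-fib replicate 1 and 0 without NASH-fib replicate 3. The count called lower in that comparison, 2 with all libraries, ranged from 0 without CCl4-fib replicate 1 or 2 to 5 without NASH-fib replicate 2. The share of all tested genes called was not counted in the fits that left out a library.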

How the data were processed

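Libraries were prepared with a SMARTer Ultra Low Input kit and sequenced single-end. The authors aligned the reads with STAR to mm10 and counted reads on exons with HOMER, on both strands, with at most 3 reads per position and transcripts condensed to genes. The deposited signal values are these counts scaled by 1 factor per library, set over 10 libraries of which 9 were used here. Whole reads were recovered from 100% of the values (tolerance 0.05).

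Genes with enough reads (edgeR 4.0.16, filterByExpr, minimum count 10) were fitted by limma 3.58.1 on log2(value + 1), with a trend, in 1 model of the 3 groups, under R 4.3.3, with Benjamini-Hochberg adjustment over 13651 genes. A call required a log2 fold change of at least 1 and an adjusted p under 0.05. Folds against a group at the floor used 3 reads per library. The limma steps were tested on simulated data. All 40 genes are named, with values in every library for those called, and from the other lists (glycolysis, hypoxia response, glycogen and gluconeogenesis, markers of cell types) the called genes with the 3 largest changes in each comparison. The genes and lists were chosen with earlier results of these data known. Since libraries are pools, p-values measure the spread between pools. Promoters came from RefSeq on GRCm38.p6 and GC content from GENCODE M21 transcripts.

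Alternatives were pseudocounts of 0.5 and 4, no filter, an average RPKM over 100, TMM and upper-quartile scaling, edgeR, DESeq2 1.42.0 (both on recovered reads), the 2 groups alone, a replicate block, a date term, no minimum fold, and leaving out each library. Removing GC content and length, the same with the block, and leaving out HSC replicate 2 with NASH-fib replicate 1 were chosen after seeing the data. Some genes are not reported here.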

Additional observations from a re-analysis of the deposited data

How the results depend on the processing

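Over 120 results for single genes and 2651 refits of them, 2432 kept their side of the threshold, 130 lost a call and 89 gained one. Most of the 120 results were not calls, and results that stayed without a call count as kept. Against HSCs, 2 of the 4 higher calls in NASH-fib held in every refit that tested them. In CCl4-fib, 4 of 14 higher and 3 of 4 lower calls did. In NASH-fib against CCl4-fib, 0 of 5 higher and 0 of 2 lower calls did. A change of direction with a call before or after it was seen in 0 refits. Changes of direction between fits without a call were counted as kept. In NASH-fib against HSCs, 4 genes were called higher, where DESeq2 called 7 and the fit without HSC replicate 2 and NASH-fib replicate 1 called 9, with 1 called lower. In CCl4-fib against HSCs, 14 were called higher, where edgeR called 9 and the date term gave 7. In NASH-fib against CCl4-fib, 5 were called higher and 2 lower. DESeq2 called 8 higher there, and edgeR called 6 higher and 1 lower. The count called lower was 1 with a pseudocount of 0.5, without a filter and with the date term, and 4 with both of those libraries left out. The filter of an average RPKM over 100 left 5 of the 40 genes and 1080 genes in all, and 2 were then called higher in CCl4-fib against HSCs and 0 in every other comparison and direction. The share of all tested genes called was not counted in these refits or in those below.

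Leaving out 1 library gave 3 to 8 called higher and 0 to 1 lower in NASH-fib against HSCs, 6 to 16 and 3 to 5 in CCl4-fib against HSCs, and 0 to 7 and 0 to 5 in NASH-fib against CCl4-fib. The replicate numbers did not pair the libraries, since the correlation of same-numbered libraries ranged from -0.473 to 0.514. HSC replicate 2 and NASH-fib replicate 1, whose labels share a date, correlated at 0.645. The other pairs across groups with a shared date ranged from -0.171 to 0.0399. With the replicate block the counts called higher and lower were 4 and 0, 10 and 4, and 6 and 1 in that order. The cause of these changes was not tested.

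A limit of 3 reads per library set the floor for Eno2 in HSCs and Gys2 in CCl4-fib, so those changes are bounds. Another scaling moved the median log2 fold change of all genes from 0.18 to 0.001 (edgeR) in CCl4-fib against HSCs and from -0.11 to 0.14 in NASH-fib against CCl4-fib.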
